A study of Mus musculus with 6 samples.

Results

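Double negative (DN) T cells carry an αβ T cell receptor (TCR) but neither the CD4 nor the CD8 coreceptor. The cells described here were the DN T cells of the mouse kidney in which no transcript of Klrb1c (encoding NK1.1, a lectin-like receptor of natural killer (NK) cells), Pdcd1 (encoding the inhibitory receptor PD-1) or Fcer1g (encoding an Fc receptor signaling chain) was detected. They were chosen by measured values: a droplet barcode of a DN library was a member when it had at least 500 detected genes, at most 20% mitochondrial unique molecular identifiers (UMIs), at least 1 UMI over Cd3d, Cd3e and Cd3g, and 0 UMIs of each of the 3 genes. In the control library 3849 of 9309 barcodes with a Cd3 UMI were members, and in the ischemic library 2672 of 3951, in all 6521 members among the 54039 barcodes of the 6 libraries. The remaining 5460 and 1279 Cd3 barcodes are called the other Cd3 barcodes, or the others.

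Kidney DN T cells were sorted as CD45+ TCR+ CD4- CD8- cells from male wild-type C57BL/6J mice aged 7 to 8 weeks. The control group held normal kidneys, and in the ischemia-reperfusion (IR) group both renal pedicles had been clamped for 30 min before the clamps were taken off. RNA of sorted cells was captured with 10x Genomics 3' chemistry, and CD4+ and CD8+ T cells were sorted and sequenced in the same way. There was 1 library per group, with no number of pooled mice or hour of kidney harvest on its label, so no test was possible and every interval below covers counting error only.

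DN T cells make up a small share of T cells in lymphoid organs and a larger one in the kidney, where they are found in uninjured tissue and respond to ischemia. Many αβ T cells without coreceptors carry receptors first described on NK cells. These receptors read stress ligands or MHC class I molecules, and several of them have no signaling tail of their own and depend on adaptor chains such as those encoded by Fcer1g and Tyrobp. PD-1 restrains T cells after repeated TCR stimulation. Other innate-like T cells are set to the type 17 program, in which the interleukin-23 receptor (gene Il23r) goes with a capacity to make interleukin-17.

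The share of Cd3 barcodes without the 3 transcripts was 41.3% (exact 95% Clopper-Pearson interval 40.3 to 42.4) in the control library and 67.6% (66.1 to 69.1) in the IR library. Depth moved with it. Members had a median of 8130 UMIs in the control and 1449.5 in the IR library, and the others 8878 and 1712. With the barcodes of a library split by depth into 5 equal classes, the control share was 51.1% in the class with the fewest UMIs and 28.3% in the class with the most, and the IR share was 78.1% and 50.6%. Barcodes with at least 1000 UMIs were thinned at random to 1000, and 8431 control and 3384 IR barcodes kept a Cd3 UMI. Of these, 77.5% (76.6 to 78.4) of the control and 75.5% (74.0 to 76.9) of the IR barcodes met the rule. At 500 UMIs 86.1% and 84.6% did. The rule therefore selected cells with no captured transcript. At a matched number of all UMIs the intervals of the libraries overlapped, and equality was not tested. UMIs of mitochondrial, ribosomal and Malat1 features were included, and other features held 78.3% of control and 69.4% of IR UMIs in Cd3 barcodes.

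**Figure D1:**
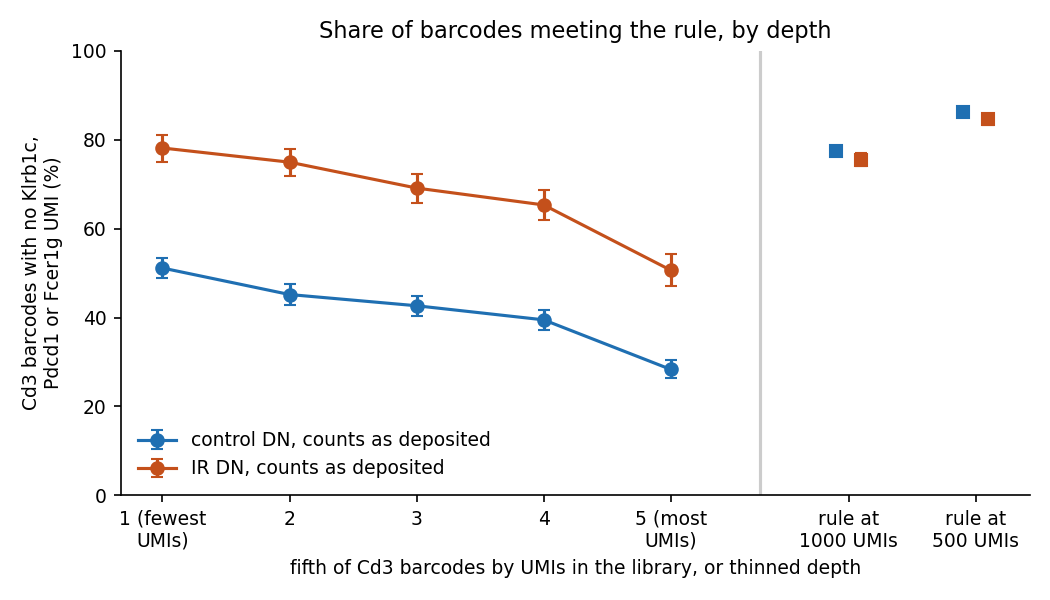
Percent of Cd3 barcodes with no Klrb1c, Pdcd1 or Fcer1g UMI (y axis) in 5 equal classes of UMIs per barcode and after thinning to a fixed number of UMIs (x axis), in the control and IR DN libraries, with 95% Clopper-Pearson intervals. The shares are lower at greater depth in both libraries, and after thinning to 1000 UMIs they are 77.5% and 75.5%.

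Of the genes behind the rule, Klrb1c was the most widely detected, with a UMI in 45.6% of control and 20.5% of IR Cd3 barcodes. Fcer1g was detected in 25.6% and 15.9%, and Pdcd1 in 9.66% and 2.28%. The barcodes nearest to the threshold were those with exactly 1 UMI over the 3 genes, 1359 (14.6%) in the control and 655 (16.6%) in the IR library. For Klra7 and Tyrobp they lay between members and the rest. Klra7, which encodes an NK receptor of the Ly49 family, was at 14.3 CPM (UMIs of the gene scaled to a common total) in control members and 27.6 CPM in control barcodes with 1 UMI, and Tyrobp was at 5.99 and 12.7 CPM.

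The label for these cells names Kcnq5, Cd28 and Cd40lg as their markers, and these genes did not set members apart. Kcnq5 (chromosome 1, 21398403 to 21961942, GRCm38) encodes a voltage-gated potassium channel. It was at 2288 CPM (exact 95% Poisson interval 2270 to 2307) in control members and 2297 (2283 to 2312) in the other control Cd3 barcodes, and at 810 (778 to 842) and 838 (796 to 882) in the IR library. Cd28 (chromosome 1, 60716800 to 60773359), the costimulatory receptor for CD80 and CD86, was at 558 against 511 CPM in the control and 626 against 577 in the IR library. Cd40lg (chromosome X, 57212143 to 57224042), which T cells use to license antigen-presenting cells, was at 403 against 333 CPM and 276 against 215. The largest of these differences was 0.36 on the log2 scale. Kcnq5 and Cd40lg were lower in the control CD8+ library, at 127 and 34.1 CPM, whereas the control CD4+ library had 1369 CPM of Kcnq5, 691 of Cd28 and 356 of Cd40lg.

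Kcnq5 varied more among the other Cd3 barcodes than between them and the members. In the control library it was at 2626 CPM in barcodes with a Klrb1c UMI, 1698 in those with an Fcer1g UMI alone and 927 in those with a Pdcd1 but no Klrb1c UMI. The same order was seen in the IR library, at 1020, 491 and 450 CPM, where the intervals of the last 2 classes overlapped. Themis, which encodes a regulator of TCR signal strength, was at 582 CPM in control members at 382 CPM in barcodes with a Klrb1c UMI, 323 in those with an Fcer1g UMI alone and 262 in those with a Pdcd1 but no Klrb1c UMI. In the IR library it was at 168 CPM in members and at 148, 47.7 and 180 CPM in these classes, the last from 18 UMIs.

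**Figure D2:**
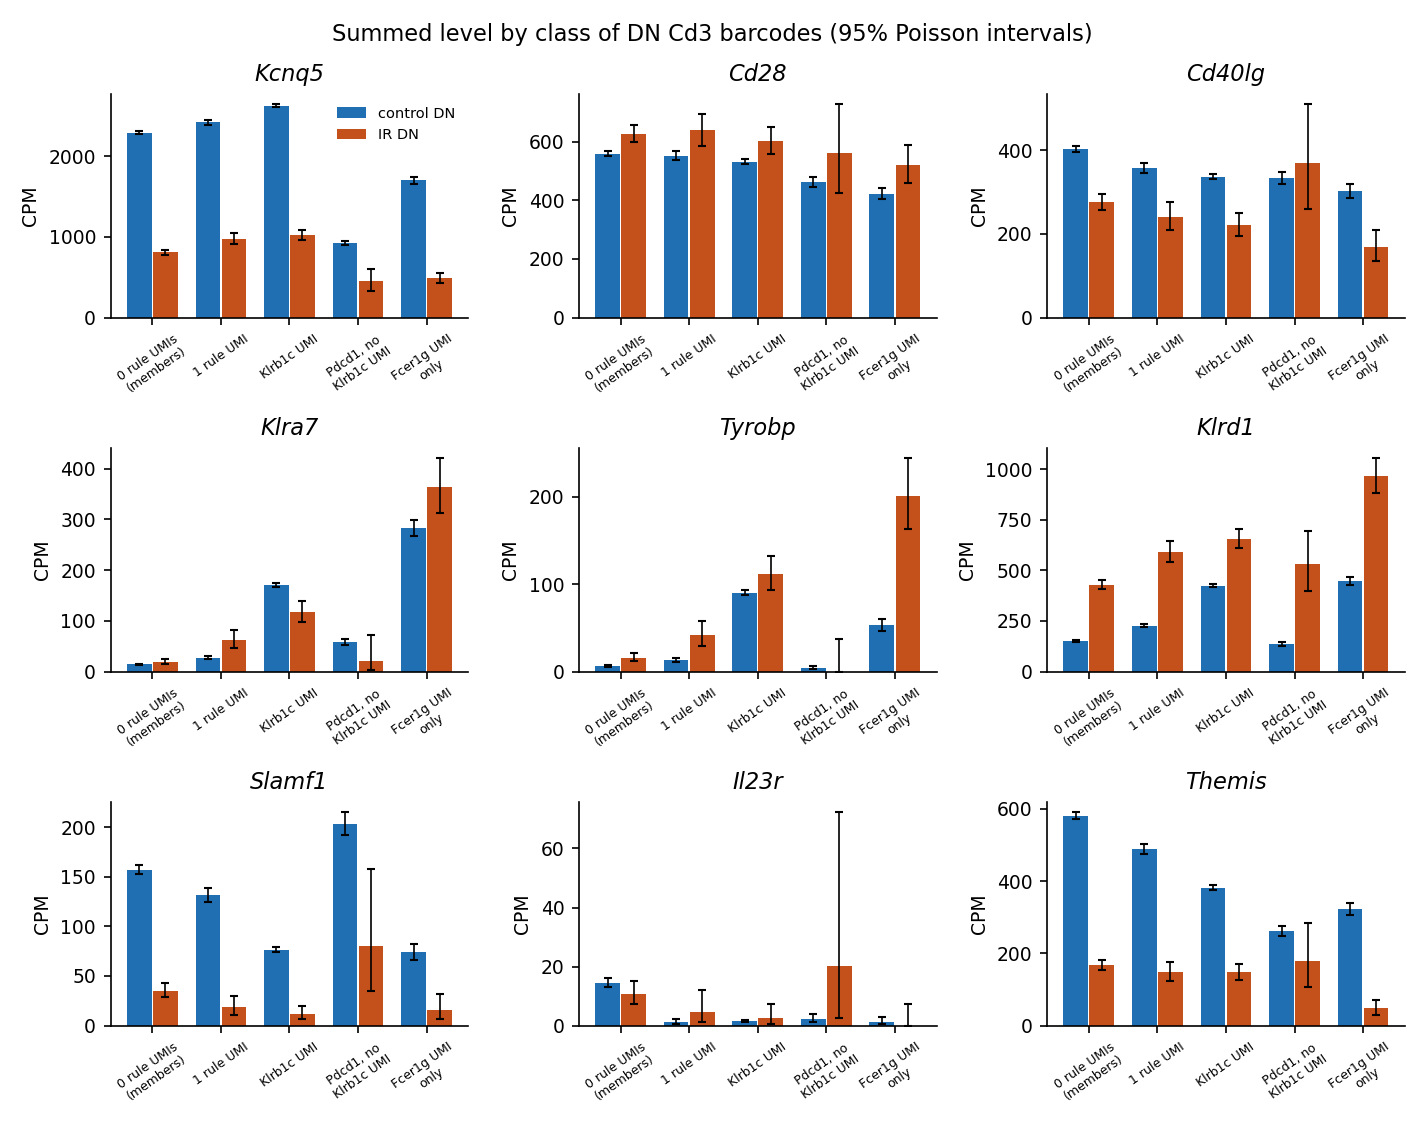
Summed level in CPM (y axes, each from 0) of 9 genes in DN Cd3 barcodes by class (x axes): members, barcodes with exactly 1 UMI of the rule genes, with a Klrb1c UMI, with a Pdcd1 but no Klrb1c UMI, and with an Fcer1g UMI only, in the control and IR libraries, with 95% Poisson intervals. The classes overlap, since a barcode with 1 rule UMI is also in another class; Klra7 is at 14.3 CPM in control members and 283 CPM in control barcodes with an Fcer1g UMI only.

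The members were αβ T cells by their transcripts. Trac, the TCRα constant gene, was at 757 CPM in control and 790 CPM in IR members, next to 694 and 814 CPM in the others. Trdc, the TCRδ constant gene, had 57 UMIs over all control members and 7 over all IR members. The coreceptor genes were nearly absent: Cd4 had 15 and 2 UMIs and Cd8a 5 and 0 UMIs in control and IR members, where the control CD4+ library had 202 CPM of Cd4 and the control CD8+ library 853 CPM of Cd8a. Few variable segments reached 10 CPM, 2 of TCRβ and 1 of TCRγ in the control and 3 of TCRβ, 1 of TCRα and 1 of TCRγ in the IR library, and none of these differed 2-fold between members and others. Trgv2, a TCRγ segment, had 191 CPM in control members and 192 in the others, and at least 1 UMI in 45.3% of the former and 49.9% of the latter.

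Some members had few UMIs or carried transcripts of other cell types. In the control library 145 members fell in a cluster of low UMI count (125 barcodes, median 1969 UMIs and 3 Cd3 UMIs, 90.4% with a Kcnq5 and 70.4% with a Cd3e UMI) or in a cluster led by kidney tubule genes such as S100g and Klk1 (20 barcodes, median 1.5 Cd3 UMIs), of which 1 barcode carried all S100g UMIs and 3 barcodes Klk1. In the IR library 11 members with a median of 1 Cd3 UMI were led by genes of myelinating glia and of neurons. Among these were Apod (in 6 barcodes), Mag (3), Uchl1 (6) and Tubb3 (5), while Fxyd2 came from 1 barcode. RNA of B cells and red cells was also present in IR members, with 48 UMIs of Ms4a1 in 48 barcodes and 55 of Hba-a1 in 54, as single UMIs nearly throughout. Barcodes shared with another library of the same condition numbered 39 in control and 24 in IR members.

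Members differed 2-fold from the other Cd3 barcodes of their library in few genes. A gene was called when the higher level was at least 10 CPM and the ratio at least 2-fold. In the control library 9 of 8784 genes (0.102%) were higher and 69 (0.786%) lower in members, 66 of the latter apart from the rule genes themselves. Of 9012 IR genes 129 (1.43%) were higher and 107 (1.19%) lower. The counting interval of the ratio was wholly past 2-fold for 5 of the 9 and 60 of the 69 control genes, but for 33 of the 129 and 37 of the 107 IR genes. With the 11 barcodes of the Apod cluster left out, the 129 became 79. Members and others were defined by the rule, so these counts describe the cut and are not evidence for it.

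The largest group of lower genes was the NK cell receptors. In control members 15 of the 18 listed receptors at 10 CPM or more were called lower and none higher, with a median log2 ratio of -1.59 against 0.00144 over all genes. In IR members 11 of 19 were lower and 1, Klrg1, higher (10.2 against 5.06 CPM, with an interval of the ratio that included equality), with a median of -1.57 against 0.0252. Klra7 had 14.3 CPM (12.9 to 15.8) in control members and 167 (163 to 171) in the others, and 19.7 (15.1 to 25.4) and 182 (162 to 203) in the IR library. Ncr1, encoding the activating receptor NKp46, was at 0.461 against 23.7 CPM in the control library and 0.329 against 19.1 CPM in the IR library, where members held 1 UMI. Klre1, an NK receptor of the lectin-like family, was at 60.2 against 305 CPM and 72.4 against 273 CPM. The Ly49 and Klrc genes have similar sequences, so that the value of any single one is less certain than that of the group.

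Klrd1, encoding the CD94 chain that pairs with NKG2 receptors, showed a smaller difference, 153 against 388 CPM in the control and 429 against 736 CPM in the IR library. Klrk1, encoding NKG2D, was at 349 against 738 CPM and 370 against 580 CPM. At least 1 Klrd1 UMI was found in 33.8% (32.3 to 35.3) of control members at a median depth of 8130 UMIs and in 69.9% of the others, and after thinning to 1000 UMIs in 10.1% and 24.8%. Among the 78 control barcodes that passed the filters without a Cd3 UMI (median 1639 UMIs) the unthinned share was 21.8%, and 13.6% (6.43 to 24.3) after thinning. These barcodes are no measure of background, since after thinning 65.2% of them had a Kcnq5 UMI, next to 64.9% of members, and background was not measured here. For Klra7 the share after thinning was 1.07% in members and 1.52% in barcodes without Cd3, the latter from 1 of 66 barcodes.

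Of 7 receptor adaptors at 10 CPM or more, 4 were lower in control and 4 in IR members. Tyrobp, the DAP12 adaptor of activating NK receptors, was at 5.99 (5.09 to 7.01) against 74.7 CPM in the control library and 15.8 (11.6 to 20.9) against 130 CPM in the IR library. Clnk, an adaptor related to SLP-76, was at 31.6 against 117 CPM and 21.7 against 52.9 CPM. Hcst, the DAP10 adaptor of NKG2D, was at 897 and 896 CPM in the control and at 1290 and 1400 CPM in the IR library, where the interval of the log2 ratio was -0.19 to -0.04.

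Of the cytotoxic granule genes 2 of 9 were lower in control and 3 of 10 in IR members. Gzma was at 25.6 against 107 CPM and 59.6 against 359 CPM, and Gzmb, the other major granzyme, at 31.5 against 92.8 CPM and 57.9 against 150 CPM. Expression of Gzma was concentrated, since 5 cells held 73.2% of its UMIs in control members. Prf1, encoding perforin, was below the 2-fold limit, at 35.7 against 65.6 CPM and 16.1 against 28.7 CPM. Ccl5, a chemokine stored in granules of memory cells, was at 1262 against 1832 CPM in the control and at 3613 against 8009 CPM in the IR library.

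Of the genes of naive or recirculating cells, 2 of 7 were called lower in control and 1 of 8 in IR members, and none higher. Nsg2, a gene of naive and recent thymic emigrant T cells, was at 3.76 against 11.6 CPM and, under 2-fold, at 10.5 against 18.6 CPM. Under 2-fold in both libraries, Klf2, a transcription factor that keeps T cells recirculating, was at 172 against 327 CPM and 678 against 1103 CPM, and S1pr1, the exit receptor it controls, at 21.1 against 39.4 CPM and 34.2 against 55.7 CPM. Ikzf2, a gene of other lists that encodes Helios, was at 238 against 442 CPM and 228 against 416 CPM.

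**Figure D3:**
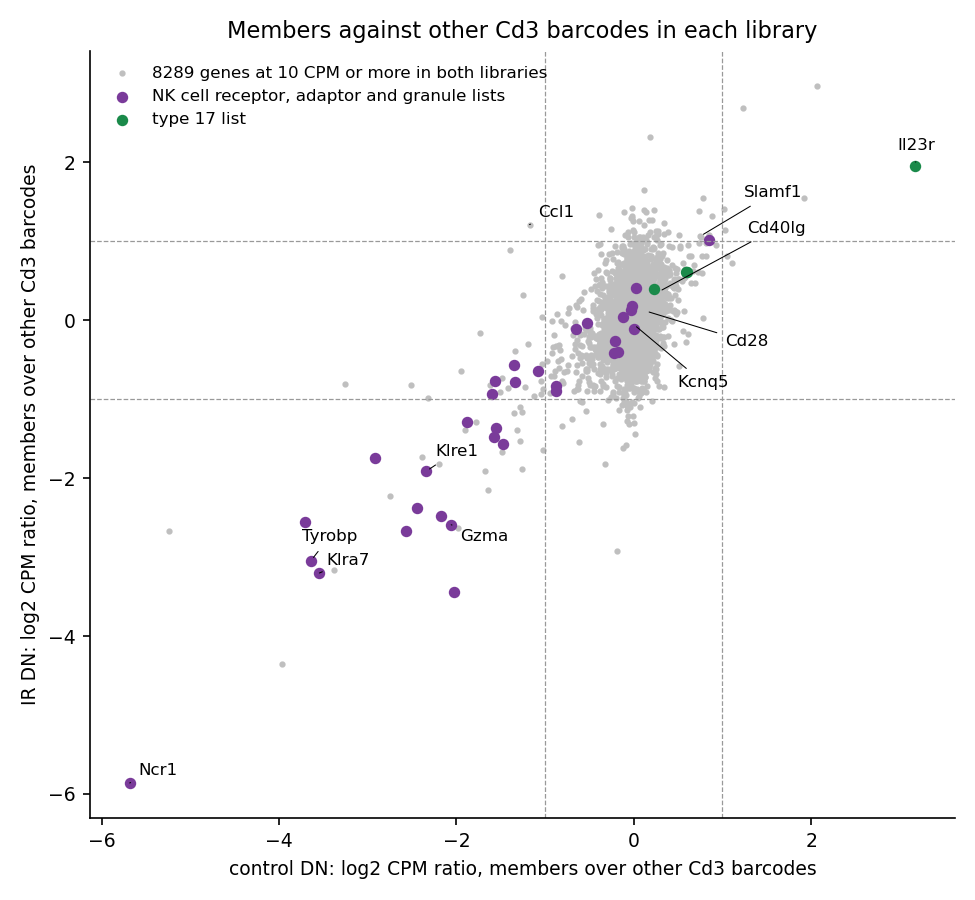
Log2 CPM ratio of members over the other Cd3 barcodes in the control (x axis) and IR (y axis) DN libraries for the 8289 genes at 10 CPM or more in both, 1 point a gene. Most genes lie near 0 in both libraries, with Klra7 and Tyrobp at log2 ratios of -3.55 and -3.64 in the control library and Il23r at 3.18 and 1.95 in the control and IR libraries.

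Few genes were higher in control members. Of the 9 in the control library, 6 were also among the 129 of the IR library: Il23r, Igf1r, Pxdc1, Serpinb1a, Adam12 and Gnaq, which is 66.7% of the former list and 4.65% of the latter. Of the genes lower in members, 34 were shared, 51.5% of the control and 32.7% of the IR list apart from the rule genes, and no gene was called in opposite directions other than Ccl1. Il23r was at 14.5 (13.0 to 16.0) against 1.60 CPM (1.25 to 2.02) in the control library, from 377 and 70 UMIs. IR members and others had 10.9 (7.47 to 15.2) against 2.81 CPM (0.913 to 6.56) of it, from 33 and 5 UMIs. The remaining 3 control genes were Ltb4r1, Gm34983 and S100g, and 95.6% of the S100g UMIs were in 5 barcodes. Of the 86 Gnaq UMIs of IR members, 34 (39.5%) were in the 11 barcodes of the Apod cluster, 27 of them in 1 barcode. Without these barcodes Gnaq was at 17.3 against 10.7 CPM (0.70 on the log2 scale) and was not called, while the other 5 shared genes stayed past 2-fold. Without the left-out control clusters S100g was under the minimum level of 10 CPM.

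Other genes were higher in members by less than 2-fold in the control library. The ratios there on the log2 scale were 0.77 for Ccr9, a gut homing chemokine receptor, 0.77 for Ly6c1, 0.75 for Slamf1, a costimulatory receptor of the SLAM family, 0.69 for Themis, 0.61 for Plac8 and 0.56 for Rora, a transcription factor of innate-like lymphocytes. Each of these genes was higher in IR members too, at 0.60 for Ccr9, 0.81 for Ly6c1, 1.06 for Slamf1, 0.47 for Themis, 0.95 for Plac8 and 0.53 for Rora. Slamf1 was at 157 against 93.7 CPM in the control and 35.2 against 16.9 CPM in the IR library, where it passed 2-fold and was detected in 3.56% of members. Genes of the TCR complex and its proximal kinases did not differ 2-fold, with 0 of 18 called in either library and medians of 0.09 and 0.07.

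Other lists are given by their calls, and equality was not tested. Of cell cycle genes 0 of 11 were called in the control library and 2 of 6 were lower in IR members, with a list median of -0.73, namely Pclaf (2.96 against 22.5 CPM, from 9 and 40 UMIs) and Tyms (7.90 against 17.4 CPM). Tbx21, encoding the type 1 factor T-bet, was at 359 against 361 CPM in the control and 137 against 159 in the IR library, and Ifng at 479 against 469 and 1017 against 968 CPM. Zbtb16, encoding the innate-like T cell factor PLZF, was at 286 against 255 and 133 against 104 CPM. None of 7 invariant NKT genes was called in the control and 1, Slamf1, in the IR library, with list medians of 0.31 and 0.36. None of 4 γδ T cell genes, 8 cytokines, 10 heat shock genes in the control or 9 in the IR library, and 12 genes of NF-κB and its feedback was called in either library. Il7r, encoding the interleukin-7 receptor, was at 93.7 against 171 CPM in control members and others but at 690 against 655 CPM in the IR library.

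Type 17 genes led the genes that were higher in members, and they came from few cells. Clustering the members of each library gave a cluster of 66 control members (1.71%) and a cluster of 54 IR members (2.02%) that were type 17-like by the listed markers. Control cluster 7 had 638 CPM of Il23r, 391 of Il1r1, encoding the interleukin-1 receptor, 117 of Il17re and 70.1 of Ccr6, the receptor for CCL20. IR cluster 5 had 386 CPM of Il23r, 322 of Il1r1, 77.2 of Il17re and 64.3 of Ccr6, the last 2 from 6 and 5 UMIs. Il23r was detected in 44 of the 66 control and 17 of the 54 IR barcodes. Both clusters had high Il7r, at 1707 and 1338 CPM, and low Kcnq5, at 380 and 77.2 CPM, the latter from 6 UMIs. Levels of Trac were 892 and 1119 CPM. Tcrg-C1, a TCRγ constant gene, was at 163 CPM in control cluster 7, next to 56.3 to 75.8 CPM in control clusters 1 to 4. In IR cluster 5 it was at 64.3 CPM, from 5 UMIs. Trdc had 6 UMIs in control cluster 7 and 0 in IR cluster 5.

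The type 17-like cluster held 96.6% of the Il23r UMIs of control members, 95.7% of Il1r1, 77.6% of Igf1r, which encodes the receptor for insulin-like growth factor 1, 59.0% of Pxdc1 and 35.4% of Serpinb1a. It held 13.0% of the Adam12 and 8.74% of the Gnaq UMIs. In IR members the cluster held 90.9% of the Il23r, 80.6% of the Il1r1, 62.7% of the Pxdc1 and 27.3% of the Igf1r UMIs. The clusters were made from such genes, so these shares describe them.

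No control member had an Il17a UMI, and the floor of 3 counts is 0.115 CPM over all control members. In the 66 barcodes of the type 17-like cluster alone the exact Poisson limit for 0 UMIs was 6.46 CPM. Of the IR members 3 had 1 UMI each. Il23r was found in 1.30% (0.966 to 1.71) of control members and 0.440% of the others, and in 0 of 78 control barcodes without Cd3, for which the interval reached 4.62%. After thinning to 1000 UMIs the shares of Il23r were 0.653% and 0.0366% in the control and 0.413% and 0.247% in the IR library, where the intervals overlapped. At 500 UMIs the control shares were 0.234% (0.107 to 0.443) and 0.0549% (0.0113 to 0.160), from 9 and 3 barcodes and with overlapping intervals. The control share was higher in members at each depth.

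Promoters of the type 17 genes were searched for the nuclear receptor half-site AGGTCA on both strands, from 250 bases before to 50 bases after the start of each gene (RefSeq, GRCm38.p6). Of 12 listed genes 9 had a promoter in the table and 4 held the letters, Il23r, Ccr6, Il17a and Il17f, beside 18.13% of all 27025 genes. The stretches of Il23r and Ccr6, of which the control type 17-like cluster held 96.6% and 93.0% of the UMIs of members, are shown at chr6:67491891-67491946 and chr17:8235974-8236029, with that of Il17a, the effector gene without a UMI in control members, at chr1:20730760-20730815, each on the strand of its gene and with 1 match in capitals (Il23r had 2 matches, of which 1 is shown, and TGACCT is a match on the other strand).
Il23r: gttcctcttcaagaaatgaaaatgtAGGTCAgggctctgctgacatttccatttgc
Ccr6: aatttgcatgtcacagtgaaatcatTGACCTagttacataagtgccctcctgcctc
Il17a: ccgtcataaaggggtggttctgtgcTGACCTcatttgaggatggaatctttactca
A match is a description of the sequence and not a measured binding site.

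Members were heterogeneous beyond the type 17-like cells. Most control members fell in 4 large clusters. Cluster 1 (1086 members) was led by Gzma, detected in 36 of its members, Klrg1 (260) and Casp1 (360), with 3251 CPM of Ccl5 and 812 of Kcnq5. Cluster 2 (805) was led by Klrc2 and Klrc1, with 3258 CPM of Kcnq5 and 331 of Klrc1. Cluster 3 (802) had 874 CPM of Cd28 and 555 of Icos, a costimulatory receptor, and cluster 4 (745) had 1978 CPM of Hspa1a, an inducible heat shock gene, and 203 of Il4. Kcnq5, Ly6c1 and Ccr9 were high in clusters 2 to 4 and low in cluster 1, Ly6c1 at 119, 147 and 161 against 5.85 CPM. These leading genes describe the clusters and are not findings about them, since the clusters were made from them.

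Of the smaller control clusters, cluster 5 (135 members) had 1005 CPM of Ccl1, 643 of Isg15, 453 of Cxcl10 and 360 of Ifit3. Isg15, an interferon-stimulated gene, was at 22.1 to 59.4 CPM in clusters 1 to 4 and 7 to 9. Cluster 8 (40 members) had 66.4 CPM of Eomes, a T-box factor of memory and NK cells, and 240 of Klra7, and it held 17.5% of the Klra7 UMIs of all control members, next to 57.8% in cluster 1. Cluster 9 (25 members, median 20751 UMIs) had 2155 CPM of the proliferation gene Mki67. In the IR library cluster 2 (675 members) had 259 CPM of Ccl1, 265 of Csf2 and 112 of Cxcl10. Cluster 3 (664 members, median 2 Cd3 UMIs) had 677 CPM of Ass1, an enzyme of arginine synthesis, and 100.1 of Tigit, an inhibitory receptor. Cluster 4 (412 members) had 13086 CPM of Ccl5, and it held 87.8% of the Gzma and 60.0% of the Klra7 UMIs of IR members.

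**Figure D4:**
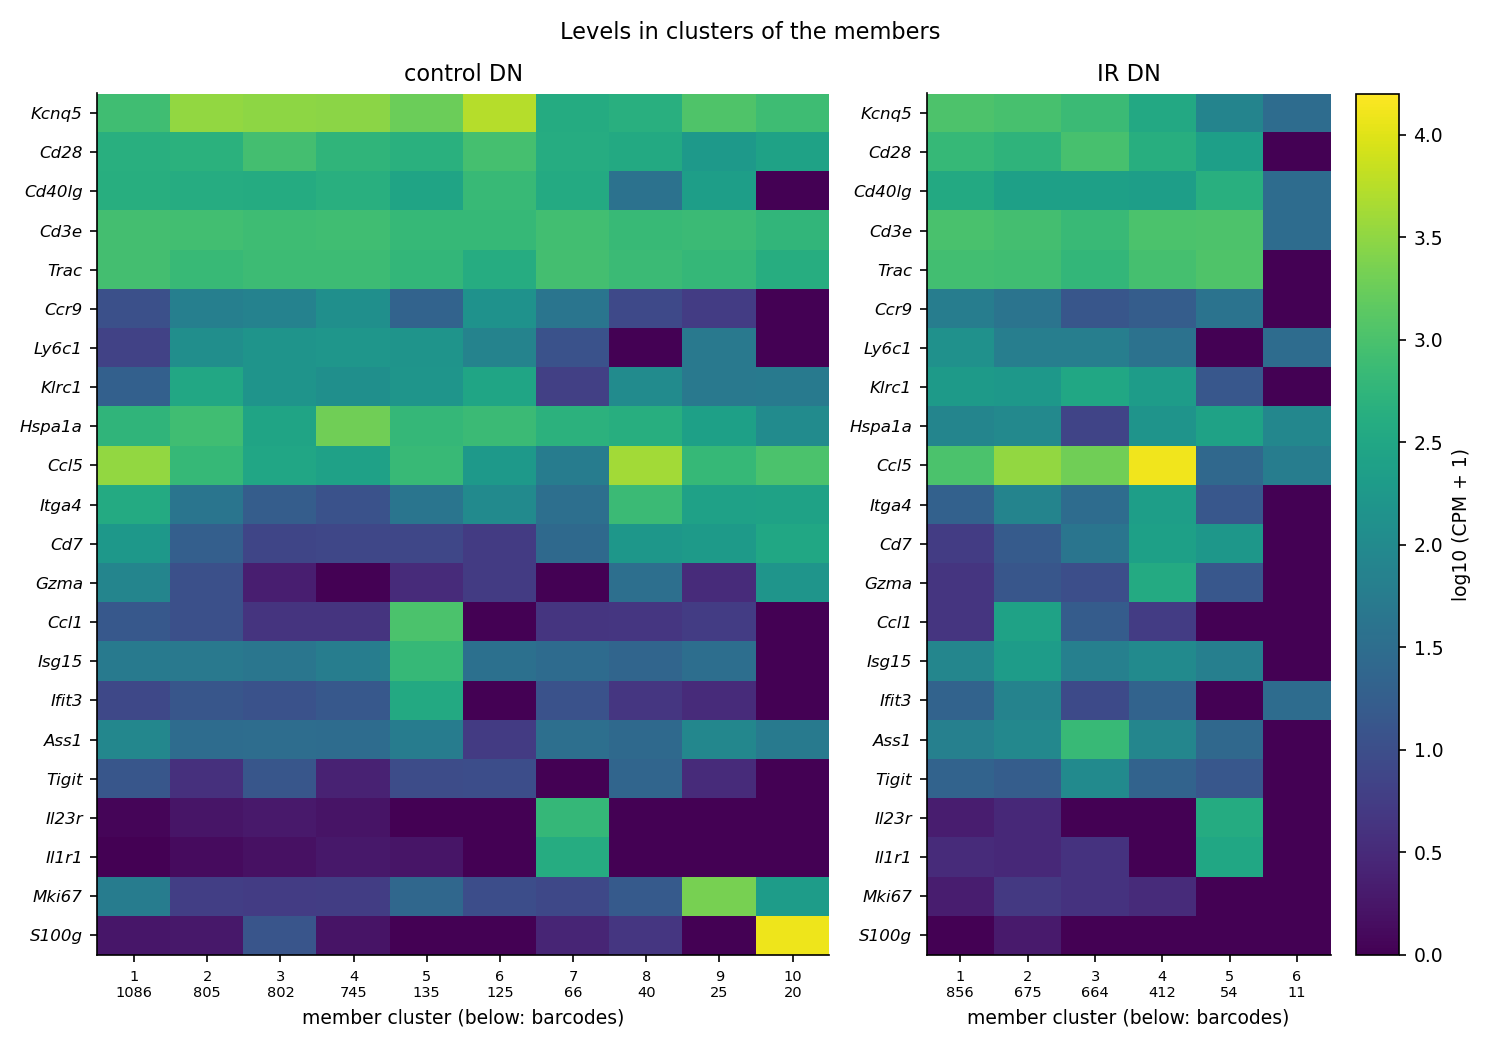
Summed level as log10(CPM + 1), in color, of selected genes (rows) in the clusters of members (columns, with the number of barcodes) of the control and IR DN libraries. Il23r and Il1r1 are high in control cluster 7 and IR cluster 5, and S100g in control cluster 10.

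Clustering all Cd3 barcodes of a library without the 3 rule genes, a step added after the data had been seen, showed where members stood among the rest. The share of members was 6.92% (5.23 to 8.95) in a control cluster of 766 barcodes led by Car2, Nsg2, Id3 and Klra6, and 14.0% (12.2 to 15.8) in one of 1498 led by Styk1, Klra5 and Klra9. It was 61.7% (59.3 to 64.0) in a cluster of 1623 led by Casp1 and Klrg1 and 82.3% (72.1 to 90.0) in the cluster of 79 led by Ccr6, Il23r and Il1r1, 65 of which were members. In the other control clusters the share was 33.8% to 63.2%. In the IR library it was 32.3% (27.9 to 37.0) in the cluster of 424 led by Nsg2 and Hes1, and 65.7% to 94.2% elsewhere, with 85.3% in the cluster of 811 led by Plaur and Ass1. That cluster had a median of 1287 UMIs, the lowest of the IR clusters, and the part of depth in its share was not tested.

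Between the conditions, genes of NF-κB and its feedback and immediate early genes were called in IR members only as higher, and heat shock and cell cycle genes only as lower, than in control members. A called gene was at least 2-fold higher in 840 of 9270 genes (9.06%) and lower in 1046 (11.3%), and the median over all genes was -0.24 on the log2 scale. With the mitochondrial, ribosomal and Malat1 features kept in the totals the split was 585 higher and 1552 lower and the median -0.43. Calls were made against equality and not against the median, and the ratios below are given without a shift by it. Each condition was 1 library, and the libraries also differed in depth and in the version of Cell Ranger in their headers (5.0.1 for control and 6.0.1 for IR), so that condition, library, depth and software cannot be told apart. The same control library was also the base for the other Cd3 barcodes, whose values are given side by side.

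Of 12 genes of NF-κB and its feedback 6 were higher in IR members and none lower, with a median of 0.95. Nfkbia, the inhibitor induced by NF-κB, was at 2216 CPM in IR and 440 in control members (2.33 on the log2 scale), next to 2.08 in the others. Of 13 immediate early genes 6 were higher, among them Dusp1 (2.39 in members and 2.20 in others) and Junb (2.01 and 1.98), with levels of 2990 against 569 CPM and 8136 against 2022 CPM. Of 9 cytokine genes 4 were higher and 1, Csf1, lower (4.28 against 13.7 CPM, -1.68 in members and in others). The higher ones were Ltb, Lta, Ifng (1017 against 479 CPM, 1.09, and 1.05 in others) and Csf2 (107 against 35.6 CPM, 1.59, and 2.10 in others). Of 18 cytokine receptors 3, Tgfbr1, Il12rb1 and Il12rb2, were lower and 1, Il7r, was higher, at 690 against 93.7 CPM (2.88 in members and 1.94 in others), and Cxcr4, a chemokine receptor for CXCL12, was at 222 against 45.9 CPM (2.27 and 2.04). Gzmc, a granzyme of strongly activated cells, was at 40.8 against 0.806 CPM, from 124 and 21 UMIs (5.66 and 4.64). It was detected in 32 IR members, 5 of which held 63.7% of its UMIs.

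Of 10 heat shock genes 6 were lower in IR members and none higher, with a median of -1.59. Hspa1b was at 134 CPM in IR and 1562 in control members (-3.54, and -3.29 in others) and Hspa1a at 82.6 against 805 CPM (-3.28 and -3.44). Of 11 cell cycle genes 9 were lower, with a median of -2.38, and Mki67 was at 2.63 against 56.9 CPM (-4.43 and -3.38). Of its 1481 UMIs in control members, 935 were in the 25 cells of cluster 9. Among T cell genes, Slamf1 was at 35.2 against 157 CPM (-2.16 and -2.47), Themis at 168 against 582 (-1.79 and -1.56), Kcnq5 at 810 against 2288 (-1.50 and -1.45), Cxcr3, the receptor for CXCL9 and CXCL10, at 135 against 411 (-1.60 and -1.60) and Cxcr6, a receptor of tissue-resident T cells, at 507 against 1276 (-1.33 and -1.29). Of 18 genes of TCR proximal signaling 5 were lower and none higher. The ratio of Cd28 was 0.17 and that of Trac 0.06.

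For Klrd1 and Ccl5, as for Il7r, Gzmc and Mki67, the ratios in members and others lay apart, and this was not tested. Klrd1 was at 429 CPM in IR and 153 in control members (1.49) and at 736 and 388 CPM in the others (0.93). Ccl5 was at 3613 and 1262 CPM in members (1.52) and at 8009 and 1832 CPM in the others (2.13). Of 8 genes of naive or recirculating cells 4 were higher in IR members, with a median of 1.09 next to -0.24 over all genes. The list median was -0.021 with all features kept, next to -0.43 over all genes, and -0.10 after thinning, next to -0.25. Klf2, for its part, was at 678 against 172 CPM (1.98 and 1.75). Of 15 NK cell receptors 1, Klrd1, was higher and 1, Klrg1, lower.

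**Figure D5:**
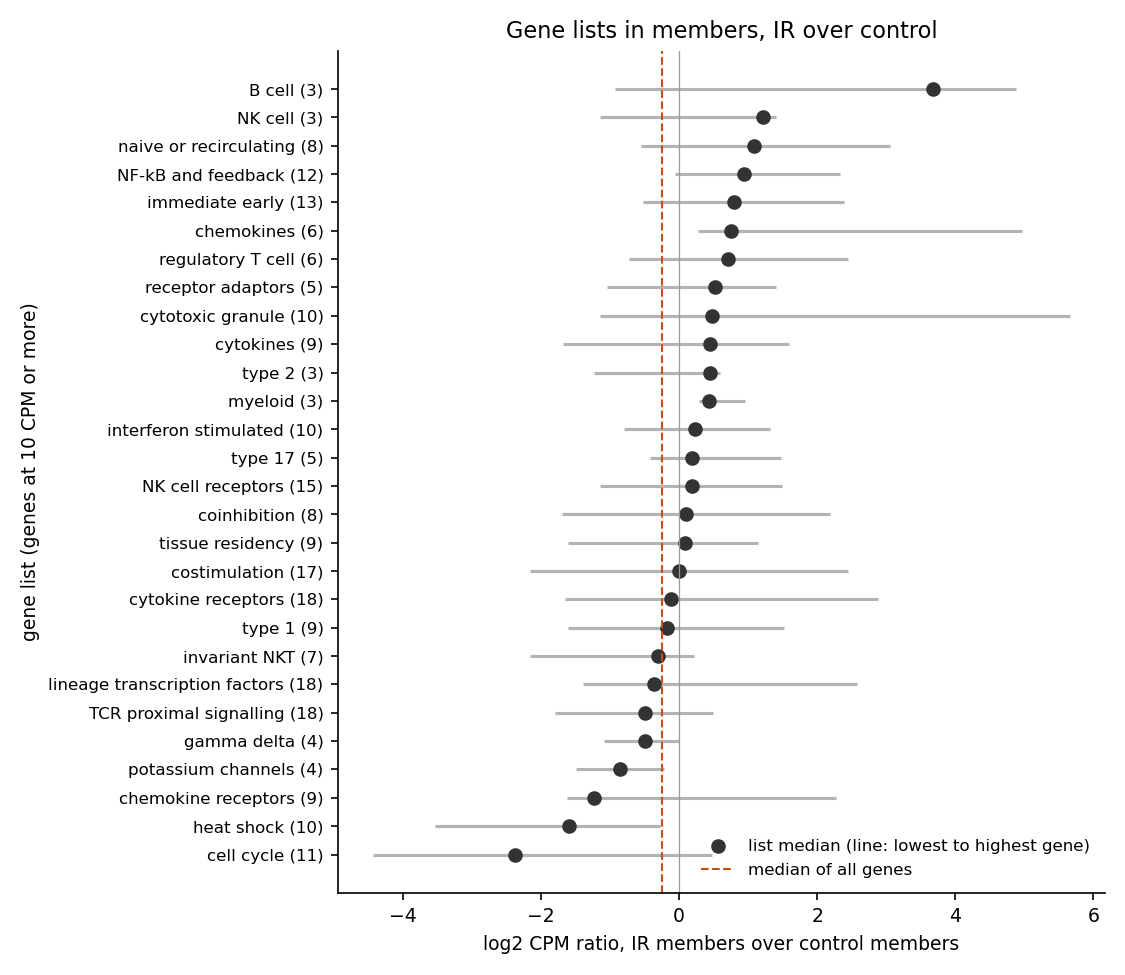
Log2 CPM ratio of IR over control members (x axis) by gene list (y axis, with the number of genes at 10 CPM or more): points are list medians, lines run from the lowest to the highest gene, and the dashed line is the median of all genes at -0.24. Cell cycle and heat shock have the lowest medians, -2.38 and -1.59; the B cell and NK cell lists rest on 3 genes each.

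Genes outside the lists had some of the largest ratios between the conditions. Cmss1 was at 310 CPM in IR and 4019 in control members (-3.70, and -3.61 in others), Cdk8 at 174 against 1841 (-3.41 and -3.20) and the gene model Gm42418 at 2391 against 14825 CPM (-2.63 and -2.64). Srrm4 was at 122 against 0.230 CPM (9.05 and 8.86) and Gm50306 at 788 against 3.03 CPM (8.02 and 7.83). The values in parentheses show a like ratio in members and in the other Cd3 barcodes. Ms4a1, a B cell gene, was at 15.8 against 0.537 CPM and Hba-a1, encoding α-globin, at 18.1 against 0.653 CPM in IR and control members, and the part of RNA from other cells in the values above was not tested.

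Interferon-stimulated genes differed little between members and others in the control library, where 0 of 10 were called and the median was 0.12. In the IR library 1 of 10, Ifit3, was higher in members, at 35.2 (28.9 to 42.5) against 11.2 CPM (6.87 to 17.4), and the median was 0.38. Isg15, a ubiquitin-like protein induced by interferon, was at 79.7 against 69.1 CPM in the control and 121 against 83.2 CPM in the IR library. The letters GAAANNGAAA, the core of the interferon-stimulated response element, were found on either strand in the promoters of 5 of the 8 listed genes with a promoter in the table, Bst2, Ifi206, Ifit1, Ifit3 and Isg15, and in those of 3.99% of all genes. Matches in a promoter can overlap each other. The stretches of Ifit3 (chr19:34583382-34583441) and Isg15 (chr4:156200850-156200909), both at their highest level in control cluster 5, are shown on the strand of the gene with 1 match in capitals (TTTCAGTTTC is a match on the other strand).
Ifit3: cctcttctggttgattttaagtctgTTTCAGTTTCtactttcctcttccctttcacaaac
Isg15: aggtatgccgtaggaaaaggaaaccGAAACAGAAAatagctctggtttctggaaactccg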

How the data were processed

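The authors deposited raw UMI counts per gene and barcode for each library. Per the labels and file headers, the counts were made with Cell Ranger (headers 5.0.1 for control and 6.0.1 for IR, 6.0.1 throughout in the submitters' processing notes) against the mouse genome mm10. The control DN library held 89497612 UMIs and the IR DN library 7787822. From the counts, barcodes with at least 500 genes and at most 20% mitochondrial UMIs were kept, 9387 of 9525 in the control and 4374 of 4705 in the IR DN library. Counts were summed over the barcodes of a class and divided by the sum over features other than 98 mitochondrial, ribosomal and Malat1 features, giving CPM, with a floor of 3 counts for a gene at 0 (0.115 CPM in control and 0.987 in IR members). A single library per group allowed no test. Intervals are exact 95% Poisson and Clopper-Pearson intervals and cover counting error only. No doublet caller was run, and removal of the 5% of barcodes with the most UMIs was an alternative, beside other scalings, depth matching, minimum levels and filters on barcodes.

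Genes were named by a rule: the rule genes, the markers, Cd4, Cd8a, Cd8b1, Trac, Trbc1 and Trdc, the 10 largest ratios of each comparison in each direction at 50 CPM or more, the 6 largest of each list at 10 CPM or more, and the 10 leading genes of each cluster at 50 CPM or more. Adam12, Gnaq, Igf1r, Pxdc1, Serpinb1a, Ltb4r1, Gm34983, S100g and some other genes outside that rule were named after their values were seen. The members and the gene lists were chosen with earlier results of these data known. Members were clustered by the Leiden method (scanpy 1.11.5, igraph 0.11.9, 2000 variable genes, 30 components, 15 neighbors, resolution 0.6) in Python 3.11.15, with edgeR 4.0.16 in R 4.3.3 for TMM scaling alone. The scripts were tested on simulated data. The joint clustering, the values without the left-out clusters, the cells behind a value and the promoter searches were added after the data had been examined. Promoters on chromosome 18 were not used here. Some genes of the lists are not reported here.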

Additional observations from a re-analysis of the deposited data

Results flagged for a closer look

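Ccl1, encoding a chemokine for CCR8-bearing cells, stood on opposite sides in the 2 DN libraries. It was lower in control members than in the other control Cd3 barcodes, at 58.5 against 132 CPM (log2 ratio -1.18), and higher in IR members than in the others, at 88.5 against 38.2 CPM (1.21). The difference between the libraries was not tested. The control ratio was 0.90 with the rule applied to thinned counts and 0.50 with other-cell barcodes left out, so that under these alternatives both libraries had the same direction. The UMIs came from few cells. In control members 1179 of 1525 UMIs (77.3%) were in 5 of 85 cells with a UMI, and the highest cell had 425, while in the others 56.4% were in 5 of 152 cells and the highest had 745. In IR members 203 of 269 UMIs were in 5 of 32 cells, and in the others 52 of 68 in 5 of 15. The shares of cells with a Ccl1 UMI after thinning to 1000 UMIs were 0.627% in members and 0.715% in others of the control library, and 0.867% and 0.822% in the IR library, with overlapping intervals.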

How the results depend on the processing

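No paired analysis was possible because each group was 1 library and the results come from no test. Of the counts of called genes and shares of members under the alternatives, 74 were within the limits set for an unchanged value and 30 were not. Of the shares of cells with a UMI, 43 were unchanged and 237 moved with the depth to which cells were thinned, and of the list medians 1040 were unchanged, 85 moved and 2 changed direction. Of the gene ratios 1592 were unchanged, 316 moved and 6 changed direction. The 9 genes higher in control members became 23 after thinning to 1000 UMIs, 44 with the rule applied to thinned counts, 15 in the deeper part of the barcodes, 16 as a mean over depth bins, 729 with no minimum level and 0 at a minimum of 50 CPM, and the 69 lower became 1122 and 22 under the last 2. The 129 higher in IR members became 78 with all features kept, 241, 359 and 265 under thinning, the rule on thinned counts and the deeper part, 79 with low-Cd3 or low-UMI clusters left out (added after seeing the data), 1098 with no minimum and 9 at 50 CPM. The 107 lower became 64, 216, 263 and 172 under the first 4 and 584 and 24 under the limits on level. For IR over control members, 840 higher and 1046 lower became 3968 and 1821 with no minimum and 345 and 550 at 50 CPM. The control share of 41.3% became 77.5% and 86.1% with the rule after thinning to 1000 and 500 UMIs and 42.6% with the top 5% of barcodes removed, and the IR share of 67.6% became 75.5% and 84.6%. The log2 ratio of Ccl1 in the control became 0.90 with the rule on thinned counts and 0.50 with other-cell barcodes left out, that of Gm13822 in the IR library -0.44, -0.46 and -0.039 with the top 5% removed, the rule on thinned counts and a mean over cells and that of Lrmda between conditions -0.42 with the rule on thinned counts. The median of the naive or recirculating list between conditions became -0.021 with all features kept and -0.10 after thinning. A minimum level changes how many genes are tested and thinning leaves fewer UMIs. For the reversals the cause was not tested.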
